A study of Mus musculus with 6 samples.

Results

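The BCL2 family genes described here are Bcl2, Bcl2l1, Mcl1, Bcl2a1a, Bcl2a1b, Bcl2a1d, Bax, Bak1, Bcl2l11 and Bid, 10 of the 21780 genes in a table of RNA-seq read counts. They were chosen by symbol, with Ensembl gene IDs matched to GENCODE vM21, and all 10 had a row in the table. The libraries came from CD45+CD11b+ cells, leukocytes carrying the myeloid integrin CD11b, sorted by FACS from the pancreas of C57BL/6 wild-type mice. Mice were 6 to 8 weeks old, of both sexes, and had been given PBS, or WGP (whole glucan particles, a particulate yeast β-glucan) at 1 mg, into the peritoneal cavity 7 days before. Each group had 3 libraries, and the sex behind each library was not given. The comparison asked how WGP changed the transcripts of pancreatic myeloid cells. The study's description of these samples takes each as a separate animal within a single experiment, so the p-values below measure the spread between animals of that experiment.

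BCL2 family proteins control the permeability of the mitochondrial outer membrane, the step that commits many cells to apoptosis. Anti-apoptotic members (BCL2, BCL-XL encoded by Bcl2l1, MCL1 and the A1 proteins encoded by the Bcl2a1 genes) hold the pore-forming effectors BAX and BAK in check, and BH3-only members such as BIM (encoded by Bcl2l11) and BID bind and oppose the anti-apoptotic proteins or activate the effectors. In myeloid cells MCL1 and A1 are known for sustaining the survival of neutrophils and activated macrophages. Among leukocytes more widely, BIM is known for removing cells after activation and BCL2 for maintaining lymphocytes.

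The depth was 35334645 to 40580936 counts for PBS and 38240913 to 43341834 counts for WGP. Counts on Y-linked genes were 0, 8972 and 10063 in PBS replicates 1 to 3 and 0, 0 and 1 in WGP replicates 1 to 3, so the libraries with 100 or more such counts, the minimum used for the covariate below, were both PBS. Markers of the sorted cells were present in every library, at a summed 9327 to 15382 CPM (counts scaled to library size, with TMM factors) in PBS and 21656 to 22951 CPM in WGP for 6 genes, of which Lyz2, Ptprc and Itgam rose and Csf1r, Adgre1 and Cd68 did not pass. Markers of other cells moved with treatment: the 8 resident macrophage markers summed to 4103 to 10085 CPM in PBS and 913.2 to 1019 CPM in WGP, led by Mrc1, and all 8 fell. The 8 markers of Ly6C-high monocytes summed to 2995 to 6466 CPM against 6533 to 8194.5 CPM (4 rose, among them Ccr2 and Ly6c2, and F13a1 fell), the 6 acinar cell markers to 983.6 to 4094 CPM against 270.2 to 469.1 CPM, the 5 B cell markers to 361.1 to 2414 CPM against 86.8 to 168.7 CPM, and 8 genes of the response to tissue dissociation to 21801 to 28521 CPM against 7192 to 9713 CPM. Of these last 8, 6 fell, among them Fosb and Jun, while Fos and Dusp1 overlapped between groups and did not pass. Conventional dendritic cell markers were at 143.3 to 194.1 CPM in PBS and 66.6 to 129.6 CPM in WGP, and only Cd209a of the 5 fell. Mast cell and basophil markers summed to 8.73 to 27.7 CPM and 32.7 to 47.1 CPM, but the WGP sum was Kit alone: Cpa3 and Mcpt4 were at 0 in every library, and Mcpt8 and Ms4a2 were at 0 in every WGP library. Neutrophil, eosinophil, T cell and NK cell marker sums overlapped between groups, although within the 8 neutrophil markers Csf3r and Cxcr2 rose and Mmp9 fell, and 1 of 5 T cell markers rose and 1 of 5 NK cell markers fell. The part of these shifts in the results below was not tested, and in such bulk samples fewer cells of a type and less RNA per cell cannot be told apart.

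Of the 10 genes, 6 were higher and 1 was lower in WGP in edgeR's quasi-likelihood test (Benjamini-Hochberg adjusted p no greater than 0.05), against 14.4% of all 14429 genes tested. All 10 passed the filter on low counts. Bcl2a1a, Bcl2a1b, Bcl2a1d, Bak1, Bcl2l11 and Bax rose, Bcl2 fell, and Mcl1, Bcl2l1 and Bid did not pass. Of the 6 that rose, 3 are near-identical Bcl2a1 copies, between which the split of reads is uncertain (given below). The counts and the median in this paragraph therefore do not rest on 10 independent genes. The share higher among all genes was 7.54% and the share lower was 6.81%. When the change also had to reach 1 on the log2 scale, 5 of the 10 genes were higher and 1 lower, against 4.53% and 4.96% of all genes (9.49% in either direction). The median log2 fold change was 0.92 over the 10 genes and -0.05 over all genes tested. The 3 WGP libraries lay above all PBS libraries for 6 of the genes and below for 2, Bcl2 and Mcl1; such separation held for 32.0% of all genes, 16.0% above and 16.1% below.

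**Figure D1:**
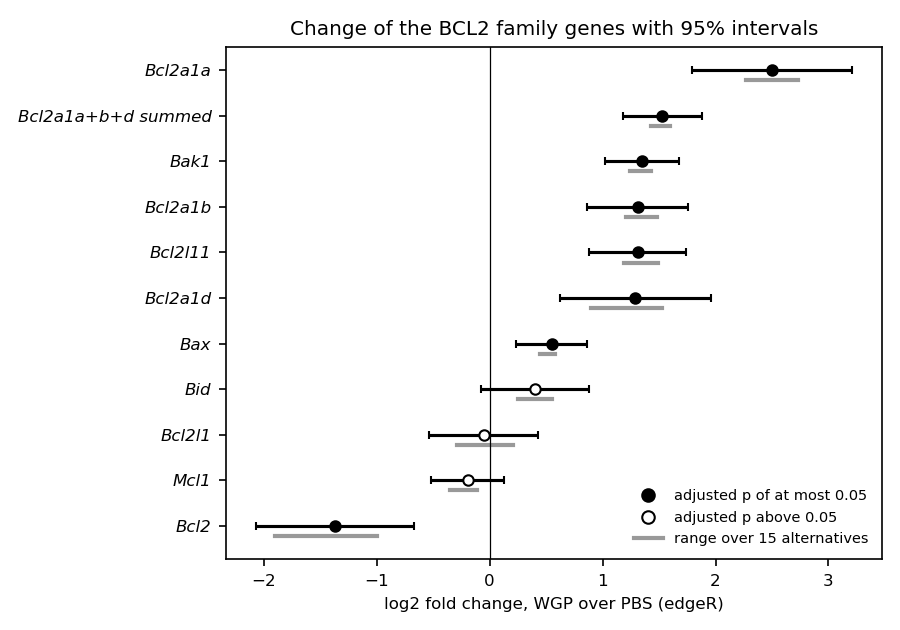
Log2 fold change of each BCL2 family gene and of the summed Bcl2a1 copies (horizontal axis, WGP over PBS), with 95% intervals as black bars and the range over 15 alternative analyses as grey bars; filled points passed an adjusted p of at most 0.05. Bcl2a1a is farthest to the right at 2.50 and Bcl2 farthest to the left at -1.37, and the intervals of Bid, Bcl2l1 and Mcl1 cross 0.

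Among the anti-apoptotic genes, Bcl2 (ENSMUSG00000057329, chr1:106538178-106714274, minus strand, GRCm38) was measured at 74.8, 49.8 and 30.4 CPM in PBS replicates 1 to 3 and at 15.6, 23.0 and 21.5 CPM in WGP replicates 1 to 3. PBS replicate 1 was the highest library and the lowest PBS library still exceeded every WGP library. The mean fell from 51.7 ± 22.3 CPM (SD, n = 3) to 20.0 ± 3.93 CPM (SD, n = 3), a log2 fold change of -1.37 (SE 0.31, 95% interval -2.07 to -0.67) with an edgeR adjusted p of 0.0151. Bcl2 encodes the founding survival protein of the family, which lymphocytes depend on. The 5 B cell markers, led by Cd79a and Ms4a1, all fell, and their sum was 2414, 621.1 and 361.1 CPM in PBS replicates 1 to 3 and 150.7, 168.7 and 86.8 CPM in WGP replicates 1 to 3. The PBS libraries thus stood in the same order for Bcl2 and for the B cell markers. The neutrophil, eosinophil and NK cell sums had this order in PBS too. The WGP order was not shared: WGP replicate 1 was lowest for Bcl2 and WGP replicate 3 for the B cell markers. The NK cell sum, at 32.0, 45.9 and 33.3 CPM in WGP replicates 1 to 3, kept the order of Bcl2 in WGP as well. The parts of B cells and NK cells in the Bcl2 difference were not tested. PBS replicate 1 had the highest values of Bcl2 and of the B cell markers. Without this library the log2 fold change of Bcl2 was -1.0 with an edgeR adjusted p of 0.0372. Without WGP replicate 1 it was -1.21 with an edgeR adjusted p of 0.0676 and missed the threshold. Of all other genes tested, Ralgps2 and Mcm7 had the patterns closest to Bcl2 over the 6 libraries, with root mean square differences of mean-centred log2 CPM of 0.172 and 0.179.

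**Figure D2:**
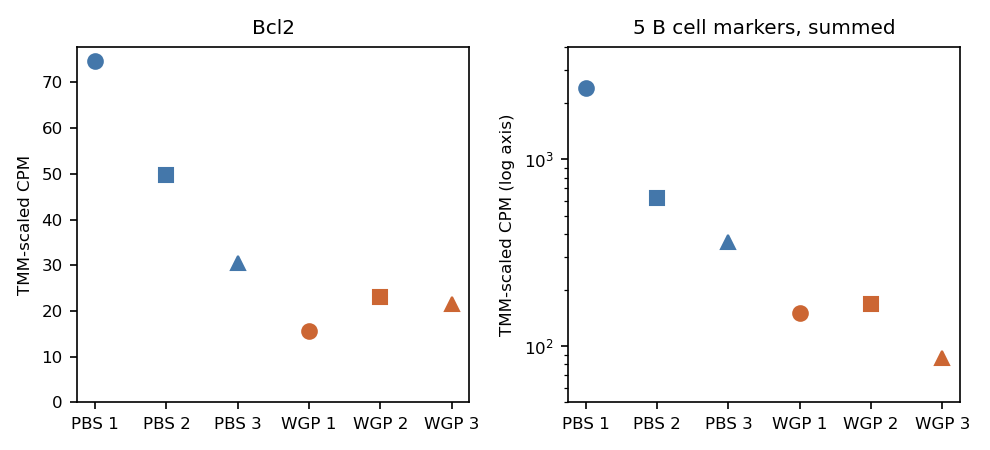
Level of Bcl2 (left, linear axis from 0) and summed level of 5 B cell markers (right, log axis) in TMM-scaled CPM for each PBS (blue) and WGP (orange) library, with replicate numbers on the horizontal axis. PBS replicate 1 is highest in both panels, at 74.8 CPM and 2414 CPM, and PBS replicate 3 is the lowest PBS library in both.

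Mcl1 (ENSMUSG00000038612, chr3:95658788-95663176, plus strand), which encodes a short-lived survival protein, had the highest level of the family, with 61941 to 71163 counts in PBS and 55086 to 61504 in WGP. Its level was 1851, 1590 and 1553 CPM in PBS and 1495, 1366 and 1503 CPM in WGP replicates 1 to 3. All WGP libraries were below all PBS libraries, by a margin that was small next to the spread within PBS. The means of 1665 ± 162.7 and 1454.5 ± 76.9 CPM (SD, n = 3 each) gave a log2 fold change of -0.19 (SE 0.15, 95% interval -0.52 to 0.13) with an edgeR adjusted p of 0.431, and none of the 15 alternatives brought it past the threshold. Bcl2l1 (ENSMUSG00000007659, chr2:152780668-152831728, minus strand), the gene of BCL-XL, was at 46.4, 62.7 and 58.1 CPM in PBS and 42.3, 69.8 and 48.8 CPM in WGP. The groups overlapped, and the log2 fold change of -0.05 (SE 0.22, 95% interval -0.54 to 0.43) had an edgeR adjusted p of 0.918. The sign of this estimate changed under 4 of the 15 alternatives.

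The Bcl2a1 genes encode A1, a survival protein that inflammatory signals induce in myeloid cells, and lie within 1 cluster on mouse chromosome 9. Their windows of 250 bases before the RefSeq start (GRCm38.p6) are shown because the 3 genes rose together and their sequences are nearly the same. Capitals mark an AP-1 motif (TGANTCA) and a PU.1 motif (GAGGAAGT), both searched on both strands, and the sequences run 5′ to 3′ on the gene's strand.
Bcl2a1a chr9:88956670-88956919 +: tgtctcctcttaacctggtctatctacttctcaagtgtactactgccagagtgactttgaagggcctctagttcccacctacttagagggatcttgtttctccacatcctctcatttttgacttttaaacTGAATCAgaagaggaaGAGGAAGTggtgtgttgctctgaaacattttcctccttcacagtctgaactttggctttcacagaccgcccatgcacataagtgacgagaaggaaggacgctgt
Bcl2a1b chr9:89199023-89199272 +: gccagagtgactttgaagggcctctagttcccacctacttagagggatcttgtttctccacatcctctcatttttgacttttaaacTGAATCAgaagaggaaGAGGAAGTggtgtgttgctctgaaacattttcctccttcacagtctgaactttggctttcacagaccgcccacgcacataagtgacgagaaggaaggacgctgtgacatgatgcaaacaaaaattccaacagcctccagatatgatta
Bcl2a1d chr9:88731851-88732100 -: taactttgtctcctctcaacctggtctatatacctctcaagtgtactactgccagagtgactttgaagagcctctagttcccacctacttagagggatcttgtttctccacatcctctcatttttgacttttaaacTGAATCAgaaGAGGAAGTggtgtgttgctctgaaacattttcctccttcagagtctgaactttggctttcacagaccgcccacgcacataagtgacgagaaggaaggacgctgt
In all 3 windows the AP-1 letters lay 5′ of the PU.1 letters. The PU.1 letters occur in 2.44% and the AP-1 letters in 6.75% of the 32851 RefSeq promoter windows. Only the 250 bases before the start were searched in each window. Among 13 windows of the 10 genes the AP-1 letters were found only in these 3. Of the other motifs searched, NF-kB letters (in 1.41% of all windows) were found in windows of Bcl2l1 and Mcl1, neither of which passed the test, while ISRE letters (in 2.98% of all windows) and GAS letters (TTCNNNGAA, 7.02%) were in none of the 13. A match of letters describes the sequence and is no evidence of binding.

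Bcl2a1a (ENSMUSG00000102037, chr9:88956900-88962419, plus strand) was at 5.83, 3.59 and 7.14 CPM in PBS and 25.6, 32.8 and 35.1 CPM in WGP. Every WGP library was above every PBS library, and the mean rose from 5.52 ± 1.79 to 31.2 ± 4.95 CPM (SD, n = 3 each), a log2 fold change of 2.50 (SE 0.32, 95% interval 1.79 to 3.21, 5.65-fold) with an edgeR adjusted p of 0.000536. Bcl2a1b (ENSMUSG00000089929, chr9:89199209-89207827, plus strand) was at 17.8, 23.6 and 18.7 CPM in PBS and 55.4, 46.6 and 46.9 CPM in WGP. The libraries again separated, with a log2 fold change of 1.31 (SE 0.20, 95% interval 0.86 to 1.76) and an edgeR adjusted p of 0.00165. Bcl2a1d (ENSMUSG00000099974, chr9:88723285-88731914, minus strand) was at 20.0, 17.3 and 8.53 CPM in PBS and 38.8, 37.1 and 36.3 CPM in WGP. PBS replicate 3 was the lowest of its libraries, and the log2 fold change was 1.29 (SE 0.30, 95% interval 0.62 to 1.96) with an edgeR adjusted p of 0.0168. Bcl2a1d passed under 12 of 15 alternatives; it missed the threshold without WGP replicate 1 (1.26, edgeR adjusted p = 0.06), without WGP replicate 3 (1.31, edgeR adjusted p = 0.0506) and with a covariate for Y-linked counts (0.90, edgeR adjusted p = 0.2).

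The split of reads between the 3 copies is uncertain. Their transcripts were identical at 98.16% (a and b), 98.78% (a and d) and 99.14% (b and d) of aligned bases, and only 44.83%, 31.63% and 32.45% of the distinct 75-base stretches of Bcl2a1a, Bcl2a1b and Bcl2a1d occurred in no other gene, 75 bases being the read length. In addition 49.08% of the exon bases of Bcl2a1b lie in Gm29094 on the same strand, a gene with 37 and 45 counts in 1 library of each group and 0 in the rest. The 3 copies were therefore also summed, which removes the split among them. The sum was 43.6, 44.5 and 34.4 CPM in PBS and 119.9, 116.5 and 118.4 CPM in WGP. The WGP libraries were nearly equal and well above PBS, with means of 40.8 ± 5.59 and 118.3 ± 1.69 CPM (SD, n = 3 each) and a log2 fold change of 1.53 (SE 0.16, 95% interval 1.18 to 1.88, 2.90-fold, edgeR adjusted p = 0.000143). All 15 alternatives passed, with log2 fold changes of 1.43 to 1.6. The share of the summed counts on Bcl2a1a was 13.4%, 8.1% and 20.7% in PBS and 21.4%, 28.2% and 29.7% in WGP. The groups did not overlap, though the highest PBS share of 20.7% was close to the lowest WGP share of 21.4%. The two-sided exact permutation p of 0.1 is the smallest that 3 against 3 libraries allow, so this difference could not pass. The shares of the other copies overlapped between groups. Their PBS and WGP means were 49.4% and 42.0% for Bcl2a1b (two-sided exact permutation p = 0.2) and 36.5% and 31.6% for Bcl2a1d (two-sided exact permutation p = 0.5). The patterns closest to these genes were those of Mif and Il15ra for Bcl2a1a (root mean square differences of 0.0991 and 0.199), Gpr65 and Rsad2 for Bcl2a1b (0.0895 and 0.0925), and Tmem38b and Glipr2 for Bcl2a1d (0.0657 and 0.102).

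**Figure D3:**
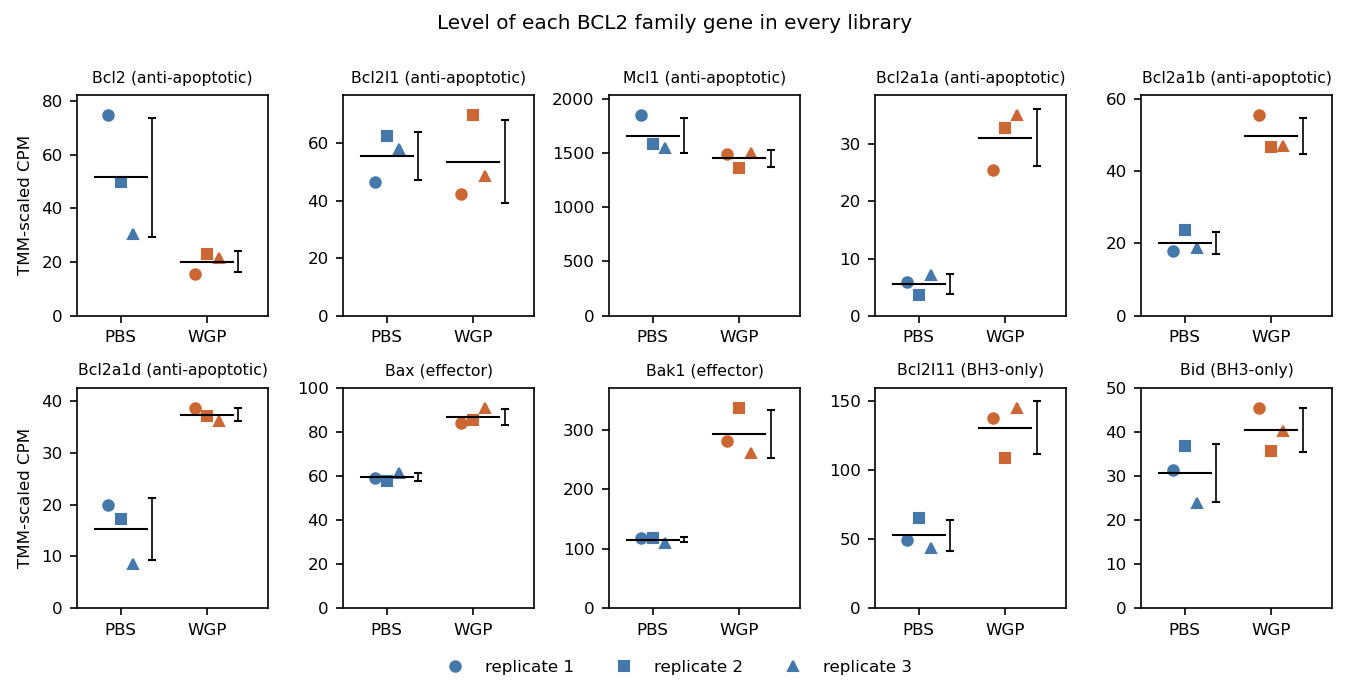
TMM-scaled CPM (vertical axes from 0, a separate scale in each panel) of the 10 BCL2 family genes in each library, with the replicate number as marker shape, the group mean as a horizontal line and ± 1 SD as a bracket. The WGP points lie above all PBS points for the 3 Bcl2a1 genes, Bax, Bak1 and Bcl2l11, below them for Bcl2 and Mcl1, and overlap for Bcl2l1 and Bid.

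Both effector genes rose. Bak1 (ENSMUSG00000057789, chr17:27019810-27029009, minus strand) encodes the effector that sits in the mitochondrial membrane. It is shown with its window because this held the same PU.1 letters, in capitals, on the other strand. The window precedes a RefSeq start but lies wholly within the Ensembl gene span just given. The windows of the Bcl2a1 genes reach into their Ensembl spans in part.
Bak1 chr17:27028628-27028877 -: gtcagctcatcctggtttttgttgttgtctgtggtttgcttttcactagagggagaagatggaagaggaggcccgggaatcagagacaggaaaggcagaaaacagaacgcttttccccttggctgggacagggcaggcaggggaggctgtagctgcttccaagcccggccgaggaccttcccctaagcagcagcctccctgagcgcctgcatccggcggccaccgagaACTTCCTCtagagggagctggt
Bak1 was at 117.8, 117.7 and 109.8 CPM in PBS and 281.5, 338 and 260.9 CPM in WGP. The PBS libraries were close together and all lay below the WGP libraries. The mean rose from 115.1 ± 4.59 to 293.5 ± 39.9 CPM (SD, n = 3 each), a log2 fold change of 1.35 (SE 0.15, 95% interval 1.02 to 1.68, 2.55-fold) with an edgeR adjusted p of 0.000221, and all 15 alternatives passed. Exons of Ggnbp1 on the other strand cover 25.51% of its exon bases, but Ggnbp1 had only 34 to 282 counts per library. H2-T23 and Hivep3 had the closest patterns, with root mean square differences of 0.0795 and 0.0855.

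Bax (ENSMUSG00000003873, chr7:45461697-45466898, minus strand), the gene of the effector that moves from the cytosol to mitochondria, was at 59.1, 58.0 and 61.5 CPM in PBS and 84.3, 85.8 and 91.2 CPM in WGP. Spread within each group was small and the groups were separate. The mean rose from 59.5 ± 1.77 to 87.1 ± 3.63 CPM (SD, n = 3 each), a log2 fold change of 0.55 (SE 0.14, 95% interval 0.23 to 0.86, 1.46-fold) with an edgeR adjusted p of 0.0261. It passed under 8 of 15 alternatives, fewer than the other called genes of the 10, and 6 of the 7 misses were at edgeR adjusted p of 0.0588 to 0.11 without PBS replicate 2 or any 1 of the WGP libraries, of 0.0697 with library totals as the only scaling and of 0.0988 with a covariate for Y-linked counts. Its log2 fold change was 0.52 to 0.58 when 1 library was left out, 0.45 with library totals and 0.56 with the covariate. Tstd2 and Ganab had the closest patterns (0.0267 and 0.0335). The ratio of Bak1 to Bax, both per exon length, was 1.31, 1.33 and 1.17 in PBS and 2.19, 2.58 and 1.87 in WGP. All WGP libraries had the higher ratio (two-sided exact permutation p = 0.1, the smallest possible here).

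Of the BH3-only genes, Bcl2l11 (ENSMUSG00000027381, chr2:128126038-128162547, plus strand) rose. It encodes BIM, a transcriptional target of FOXO factors in other settings, and 1 of its 2 windows held the FOXO letters GTAAACA, in capitals, with the first base 227 before the start; 3.17% of all windows hold them, and no other window of the 10 genes did.
Bcl2l11 chr2:128125788-128126037 +: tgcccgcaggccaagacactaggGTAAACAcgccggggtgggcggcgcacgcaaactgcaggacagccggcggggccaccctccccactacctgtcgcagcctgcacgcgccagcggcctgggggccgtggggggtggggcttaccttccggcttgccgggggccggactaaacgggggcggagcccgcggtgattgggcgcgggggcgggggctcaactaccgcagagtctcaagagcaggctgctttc
Bcl2l11 was at 49.2, 65.6 and 43.7 CPM in PBS and 137.9, 109 and 145.5 CPM in WGP. WGP replicate 2 was the lowest of its group and still above every PBS library. The mean rose from 52.8 ± 11.4 to 130.8 ± 19.3 CPM (SD, n = 3 each), a log2 fold change of 1.31 (SE 0.19, 95% interval 0.88 to 1.74, 2.48-fold) with an edgeR adjusted p of 0.00127, and all 15 alternatives passed. Oas1a and Mapkapk3 had the closest patterns (0.106 and 0.114). Bid (ENSMUSG00000004446, chr6:120891930-120916853, minus strand), whose protein links death receptors to mitochondria, was at 31.4, 36.9 and 23.9 CPM in PBS and 45.6, 35.7 and 40.4 CPM in WGP. WGP replicate 2 lay below PBS replicate 2, and the log2 fold change of 0.40 (SE 0.22, 95% interval -0.08 to 0.88) had an edgeR adjusted p of 0.288. Exons of Bcl2l13 on the other strand cover 17.69% of its exon bases, and Bcl2l13 had 1676 to 1971 counts per library.

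To compare levels between genes, CPM were divided by exon length (FPKM). In PBS the order was Mcl1 (mean 487 FPKM), Bak1 (47.8), Bax (37.8), Bcl2a1b (24.5), Bcl2a1d (17.7), Bcl2l1 (12.2), Bid (8.66), Bcl2a1a (6.74), Bcl2l11 (6.58) and Bcl2 (5.64). From Bcl2a1b downwards each gene's range over the 3 libraries overlapped that of the next. In WGP the order was Mcl1 (425.5 FPKM), Bak1 (121.9), Bcl2a1b (60.8), Bax (55.3), Bcl2a1d (43.3), Bcl2a1a (38.1), Bcl2l11 (16.3), Bcl2l1 (11.7), Bid (11.4) and Bcl2 (2.19). Bcl2a1b and Bax, Bcl2a1d and Bcl2a1a, and Bcl2l11, Bcl2l1 and Bid overlapped with their neighbours, and Bcl2 was separate below them. Among all genes Mcl1 stood at the 99.6th percentile of level in PBS and the 99.5th in WGP.

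Mcl1 made up 75.9%, 72.5% and 74.6% of the summed FPKM of the 10 genes in PBS and 55.2%, 51.5% and 55.6% in WGP. Its share was lower in every WGP library while its own level did not pass the test. The share of Bak1 went from 7.33% ± 0.407 to 15.5% ± 2.30 (SD, n = 3 each). The anti-apoptotic genes together held 84.5% ± 1.09 in PBS and 73.9% ± 1.83 in WGP, the effectors 13.1% ± 0.917 and 22.5% ± 2.24, and the BH3-only genes 2.33% ± 0.490 and 3.52% ± 0.412 (SD, n = 3 each). These shares are a description of level per exon length and depend on how copies are scaled. Another scale is per kilobase of 75-base stretches unique to each gene, which fits if reads shared between genes were not counted. On it Mcl1 held 63.3% ± 2.48 in PBS and 38.7% ± 1.61 in WGP (SD, n = 3 each). Bcl2a1b then ranked 2, Bcl2a1d 3 and Bak1 4 in both groups, where Bak1 had ranked 2 per exon length. The anti-apoptotic genes held 86.4% ± 0.893 in PBS and 80.6% ± 1.44 in WGP (SD, n = 3 each). The effectors held 11.5% ± 0.845 and 16.8% ± 1.74 on this scale, and the BH3-only genes 2.16% ± 0.409 and 2.66% ± 0.301 (SD, n = 3 each). Each class share moved in the same direction on both scales. For the BH3-only genes, however, the means ± SD overlapped between groups on this scale and did not per exon length. The ratio of Bcl2l11 to Mcl1 per exon length was 0.0113, 0.0176 and 0.0120 in PBS and 0.0393, 0.0340 and 0.0412 in WGP, and that of Bcl2l11 to Bcl2 was 0.75, 1.5 and 1.64 against 10.1, 5.40 and 7.73. Both were higher in all WGP libraries. Bcl2l11 itself was higher, and Mcl1 and Bcl2 lower, in every WGP library than in any PBS library. These levels fixed the separation of both ratios in advance. They also fixed the two-sided exact permutation p of 0.1 for each, the smallest that 3 against 3 libraries allow.

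**Figure D4:**
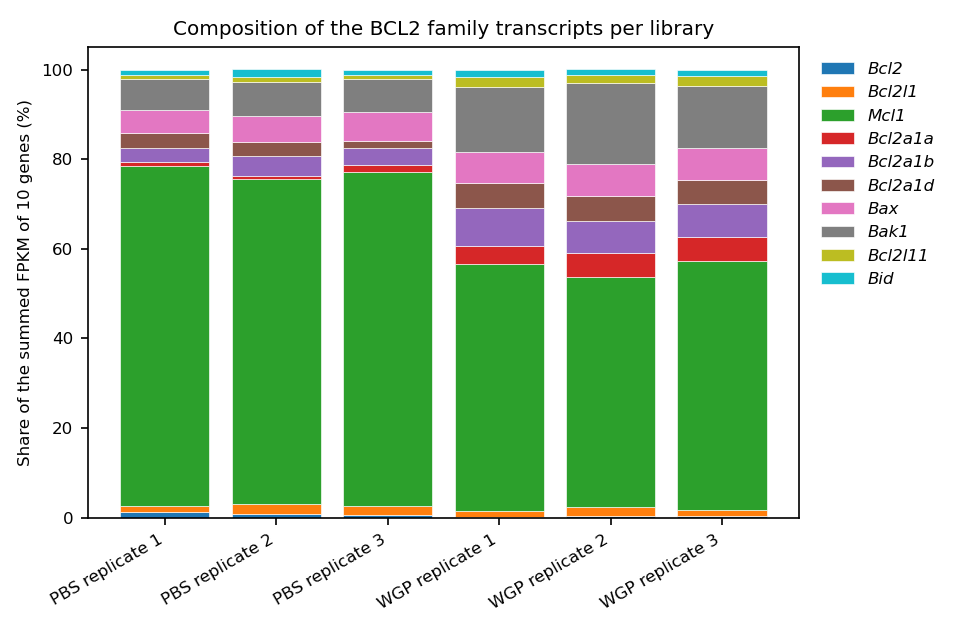
Share (%) of each gene in the summed FPKM of the 10 BCL2 family genes, stacked to 100, for each PBS and WGP library. Mcl1 fills 72.5% to 75.9% of the PBS bars and 51.5% to 55.6% of the WGP bars, and the Bak1 segment is wider in every WGP library.

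Beyond the 10 genes, 62 of 66 other apoptosis genes in 7 lists were tested, and 17 rose and 2 fell, 30.6% of those tested against 14.4% of all genes, with a median log2 fold change of 0.32. Rps6ka1 was not analysed here. Among the other BCL2 family genes, 3 of 12 tested rose and 1 fell (median log2 fold change 0.34), and Bcl2l10, Bik and Hrk had 0 counts in every library. Bbc3, which encodes the BH3-only protein PUMA, was at 77.0, 68.3 and 38.7 CPM in PBS and 12.0, 9.86 and 15.2 CPM in WGP, a log2 fold change of -2.31 (SE 0.29, edgeR adjusted p = 0.000468). The summed level of the 8 dissociation-response genes was also lower in every WGP library, and its part in this was not tested. Bnip3, a mitophagy receptor, rose from a mean of 5.60 to 37.3 CPM (log2 fold change 2.73, edgeR adjusted p = 0.00114), Bcl2l14 from 0.716 to 10.5 CPM (3.87, edgeR adjusted p = 0.00441) and Bmf, a BH3-only gene, from 27.7 to 48.8 CPM (0.82, edgeR adjusted p = 0.0491). The call of Bmf held under only 4 of 15 alternatives, with adjusted p of up to 0.207. Bcl2l14 passed under 14 of 15, with log2 fold changes of 2.96 to 4.71. Its counts were low in PBS, at 52, 12 and 20 in replicates 1 to 3. Pmaip1, the gene of the MCL1-binding protein NOXA, had a log2 fold change of -0.28 with an edgeR adjusted p of 0.432.

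Downstream of mitochondria, 4 of 12 apoptosome and caspase genes rose, 33.3% against 7.54% of all genes, and none fell (median log2 fold change 0.35). Apaf1, which builds the apoptosome, was at 66.1, 96.5 and 91.1 CPM in PBS and 171.7, 169.9 and 173.2 CPM in WGP, a log2 fold change of 1.02 with an edgeR adjusted p of 0.00235. Cycs, the gene of cytochrome c, had a log2 fold change of 0.90 (edgeR adjusted p = 0.0171). Casp8 and Casp9, the genes of initiator caspases, had log2 fold changes of 0.35 and 0.34 and did not pass. Of 9 inhibitors of apoptosis (median 0.29), 22.2% rose, namely Naip2 (1.15, edgeR adjusted p = 0.00234) and Birc3 (0.67, edgeR adjusted p = 0.00867). Naip2 belongs to a family of related genes, and how reads were shared among them was not measured. Of 10 genes of death receptors and their complexes (median 0.69), 5 rose, where 7.54% of all genes did, among them Fas, a death receptor, from a mean of 12.6 to 55.8 CPM (log2 fold change 2.14, edgeR adjusted p = 0.000799), Mlkl, the effector of necroptosis, from 11.5 to 37.5 CPM (1.70, edgeR adjusted p = 0.00241) and Tnfrsf1a from 267 to 442 CPM (0.73, edgeR adjusted p = 0.0293).

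Of 5 mitochondrial outer membrane genes (median 0.38), Vdac2, whose channel protein binds BAK, was at 123.4, 122.8 and 123.7 CPM in PBS and 201.8, 250.7 and 238.2 CPM in WGP, a log2 fold change of 0.90 with an edgeR adjusted p of 0.00176, and Tomm22, a subunit of the import pore, also rose (0.64, edgeR adjusted p = 0.0246). In the p53 and FOXO3 list 1 of 7 genes rose (list median 0.08), Cdkn1a, the cell cycle inhibitor p21 (0.72, edgeR adjusted p = 0.00993), while Trp53 itself had a log2 fold change of -0.11 and did not pass. A count of 1 of 7 is 14.3%, about the 14.4% called among all genes, here and in the next list. Of 7 tested genes that govern turnover of the MCL1 and BIM proteins (median -0.34), Fbxw7, a subunit of a ubiquitin ligase for MCL1, fell from 60.5 ± 5.32 to 36.9 ± 4.03 CPM (SD, n = 3 each), a log2 fold change of -0.71 with an edgeR adjusted p of 0.0204. Of the pathway genes named here, Cycs, Tnfrsf1a and Tomm22 passed under 11 of 15 alternatives and Fbxw7 under 12, with adjusted p of up to 0.163 for Cycs. These values are for transcripts and say nothing of protein. Leaving out 1 library brought the 19 changed pathway genes down to between 10 and 17, with 11 without PBS replicate 2, 10 without WGP replicate 1 and 11 without WGP replicate 3.

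**Figure D5:**
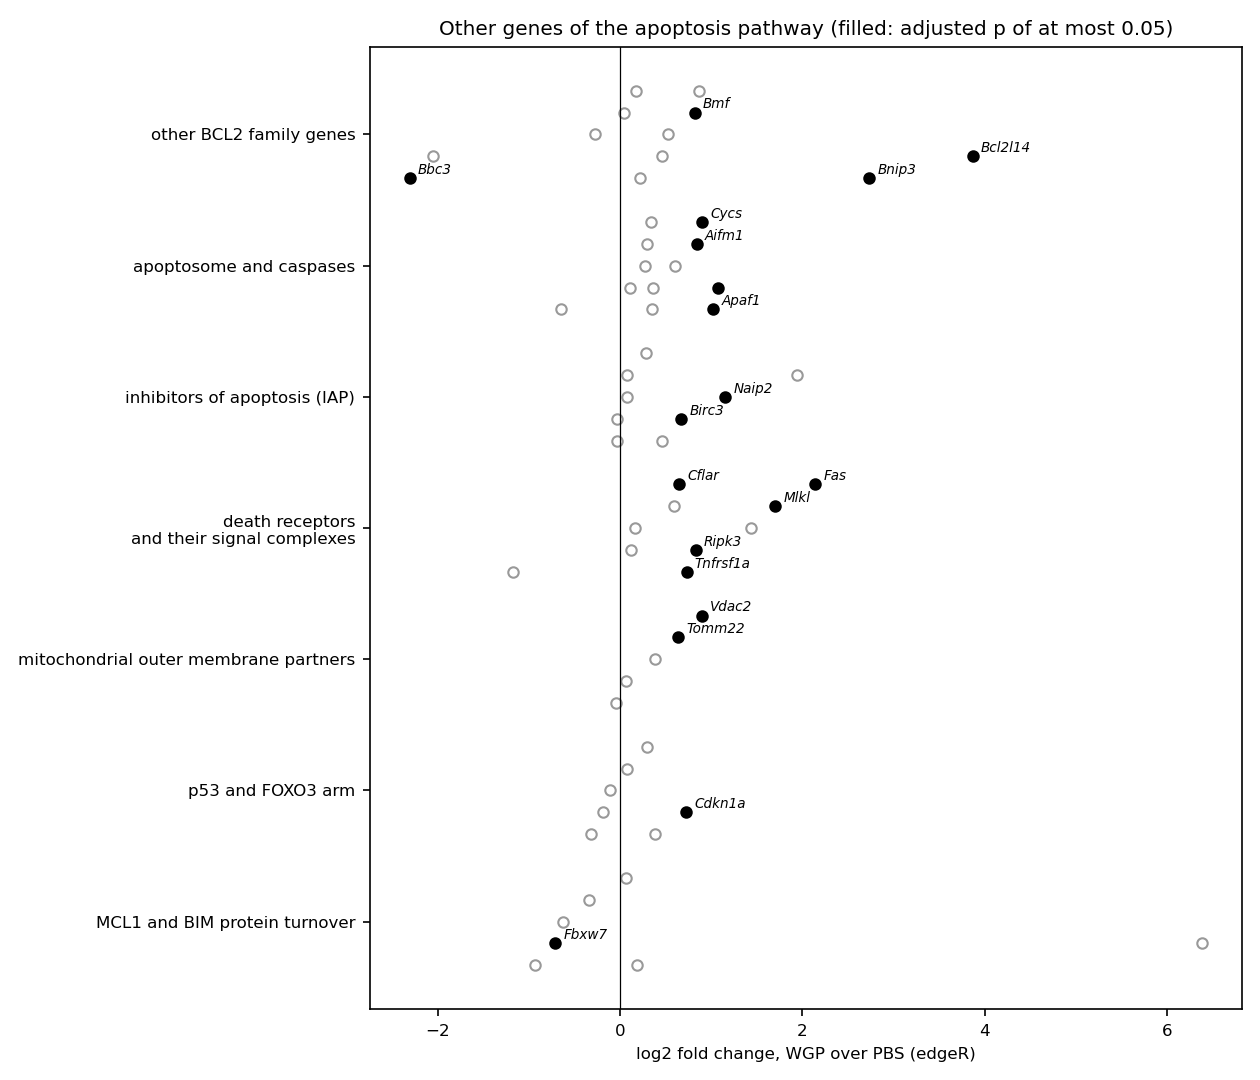
Log2 fold change (horizontal axis, WGP over PBS) of 62 other apoptosis genes in 7 lists; filled points, most of them named, passed an adjusted p of at most 0.05 and open points did not, and vertical offsets within a list only separate points. Bcl2l14 at 3.87 and Bnip3 at 2.73 lie farthest right among the genes that passed and Bbc3 at -2.31 farthest left; the open point at 6.39 is Trim17, which had 29 counts in WGP replicate 1 and 0 elsewhere, so its fitted value depends on the prior count.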

How the data were processed

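RNA was measured by poly(A) RNA-seq in sorted pancreatic CD45+CD11b+ cells, 3 PBS and 3 WGP libraries. The authors aligned 75-base single-end reads to mm10 (GRCm38.p6) with STAR 2.6 and deposited raw counts per Ensembl gene from HTSeq 0.10.0; the strand setting, annotation release and treatment of reads that map to several genes were not given in the sources used here, so overlapping and near-identical genes are uncertain. Samples were grouped by the labels. The members and lists were chosen with earlier results of these data known. Counts were scaled by TMM and tested with edgeR 4.0.16 (quasi-likelihood, R 4.3.3) on 14429 protein-coding genes whose RLE-normalized counts added up to 10 or more, adjusted over all of them by Benjamini-Hochberg. SE is the absolute log2 fold change over the square root of F. Named were all 10 members, up to 3 higher and 3 lower genes per pathway list with the smallest adjusted p, up to 2 genes of a marker list whose groups did not overlap, and the 2 genes closest to each changed member in pattern. Other genes given, such as Casp8 or Trp53, were chosen after their values were seen, and some genes that the rule names are not reported here. Promoter windows were from RefSeq. Alternatives were other scalings, filters, DESeq2 1.42.0 and limma 3.58.1 (voom), a replicate block, a Y-linked covariate, thinned counts and leaving out each library. The scripts were tested on simulated counts.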

Additional observations from a re-analysis of the deposited data

How the results depend on the processing

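The 15 alternatives gave 150 values for the 10 single genes. Of these, 135 kept their direction and side of the threshold, 11 lost the call, and 4 changed sign, all for Bcl2l1, which ranged from -0.29 to 0.09 when 1 library was left out: its log2 fold change was 0.21 with a covariate for Y-linked counts, 0.04 without PBS replicate 2, 0.09 without WGP replicate 1 and 0.01 without WGP replicate 3; the cause was not tested. Of the lost calls 7 were of Bax, 3 of Bcl2a1d and 1 of Bcl2. Leaving out 1 library gave 4 to 7 changed BCL2 family genes (4 without WGP replicate 1), 10 to 17 changed pathway genes, 1417 to 2203 changed genes in all, and log2 fold changes of 1.43 to 1.6 for the summed Bcl2a1 copies. When a log2 change of 1 or more in size was required there were 1369 genes in all and 8 pathway genes. With library totals as the only scaling the median of all genes moved by -0.103 (log2), and the split went from 1088 higher and 983 lower to 895 higher and 1186 lower.

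Replicate numbers were shared between groups only as numbers: correlations of same-numbered libraries' deviations were 0.003, -0.045 and 0.011. With the replicate number as a block, 6 of the 10 genes passed (Bax had an edgeR adjusted p of 0.054) and 1947 genes in all. A covariate for Y-linked counts leaves PBS replicate 1 alone to compare with the WGP libraries at equal Y status.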
